A study of Homo sapiens with 49 samples.

Results

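Genes of prostaglandin transport and synthesis were followed in the Ishikawa line of human endometrial adenocarcinoma cells, over a range of concentrations of ethinyl estradiol (EE), a synthetic estrogen used in oral contraceptives. The 10 genes were SLCO2A1, ABCC4, PTGS1, PTGS2, PTGES, PTGES2, PTGES3, PTGER2, PTGER4 and HPGD, and every probe set with one of these symbols in the platform annotation was taken, which gave 22 probe sets of the 54715 on the array. Cells had spent 72 h in medium with EE or with the ethanol vehicle when RNA was taken. There were 7 arrays for 0.3 pM and 6 for each of the other groups, which were 0.1, 1, 3, 10, 100 and 1000 pM and the vehicle. All 8 groups had the same ethanol concentration in CSS-supplemented medium (the labels' abbreviation), per the labels' protocols. A single cell line was used, and nothing in the labels tells whether replicates came from separate cultures. The p-values here measure only the spread between samples, and that spread may be technical.

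Prostaglandins are made from arachidonic acid, which phospholipases release from membranes. The cyclooxygenases PTGS1 and PTGS2 turn it into prostaglandin H2, and synthases such as PTGES, PTGES2 and PTGES3 turn that into prostaglandin E2. ABCC4 can carry prostaglandins out of the cell, SLCO2A1 brings them back in, and HPGD inactivates them inside. PTGER2 and PTGER4 are receptors for prostaglandin E2 that raise cyclic AMP. In the uterus these lipids are known for their part in menstruation, implantation and labour.

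Of the 10 genes, 2 rose with EE: SLCO2A1 at 10, 100 and 1000 pM, with a call at 3 pM that 1 alternative fit ended, and PTGS2 at 100 and 1000 pM. Values are the deposited log2 expression levels. A probe set was tested if its level was above 4, called the floor here, on at least 6 arrays. By that filter 9 of the 22 probe sets, of 7 genes, were tested among 22721 in all, and PTGES, PTGER2 and HPGD had none that passed. A probe set was called where limma's p-value, adjusted by the Benjamini-Hochberg method over all tested probe sets, was under 0.05.

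Before the members, the arrays and cells were checked. Array medians were 2.95 to 3.05 (log2), and 38.2% to 39.6% of probe sets lay above the floor. In 4 arrays, which were 0.3 pM replicate 2, 3 pM replicate 6, 1000 pM replicate 6 and vehicle replicate 5, the 3′ minus 5′ difference of the beta-actin control probe sets was 2.67 to 4.62 (log2), and it was 0.80 to 2.06 elsewhere (45 arrays). Values of members for which one of these arrays stood apart are given with and without them, a choice made after seeing the data. All 6 epithelial markers (EPCAM, CDH1, KRT8, KRT18, KRT19 and PAX8) passed the filter, as did 1 of 6 stromal markers (COL3A1), 0 of 6 endothelial markers (highest level 3.30) and 0 of 6 immune markers (highest level 3.37). Known estrogen targets differed: PGR, the progesterone receptor, averaged 9.15 ± 0.19 at 1000 pM EE and 4.02 ± 0.57 in vehicle (SD, n = 6 each; limma adjusted p = 9.12e-24). GREB1 and OLFM1 were also called, with log2 changes of 2.63 and 4.30 at 1000 pM, while ESR1, the estrogen receptor alpha gene, changed by 0.04 (adjusted p = 0.701).

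SLCO2A1, the prostaglandin uptake transporter, had the largest change of the members. Its 1 probe set (204368_PM_at) lay under the floor on every array at 0.1, 0.3 and 1 pM and in vehicle, and above it on every array from 3 pM. At 0.1 pM its lowest, median and highest levels were 3.46, 3.60 and 3.99, and at 0.3 pM they were 3.42, 3.53 and 3.83. They were 3.70, 3.88 and 3.97 at 1 pM, against 3.41, 3.57 and 3.99 in vehicle. These 4 groups overlapped, and values under the floor carry no order.

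At 3 pM the lowest, median and highest levels of SLCO2A1 were 4.06, 4.21 and 4.79. At 10 pM they were 4.84, 5.00 and 5.42. At 100 pM they were 5.21, 5.41 and 5.80, and at 1000 pM 5.18, 5.32 and 5.76. No array of these 4 groups overlapped with vehicle, while those at 100 and 1000 pM overlapped with each other. The arrays at 10 pM did not overlap with those at 3 pM, for which no share over all tested probe sets was counted. Replicate 1 was the highest array at 3, 10 and 100 pM.

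Against vehicle SLCO2A1 was called at 4 concentrations by limma. The call at 3 pM was lost when only the 2 groups compared entered the fit (adjusted p = 0.999). Its probe set passed the filter only through the groups from 3 to 1000 pM, so its p-values and its lack of overlap with vehicle are a description. With no filter on low values all 4 calls were kept. The log2 change was 0.66 at 3 pM (adjusted p = 0.00358), 1.39 at 10 pM (adjusted p = 1.13e-11), 1.80 at 100 pM (adjusted p = 3.51e-16) and 1.73 at 1000 pM (adjusted p = 1.06e-15), each with an SE of 0.12 and 6 of 6 arrays above the vehicle mean. Because all vehicle arrays lay under the floor, fold changes are bounds taken against it: at least 1.24-fold higher at 3 pM, 2.06-fold at 10 pM, 2.73-fold at 100 pM and 2.60-fold at 1000 pM. It was the only member called at 3 pM, where 0.0836% of all tested probe sets were called, and at 10 pM, where 0.502% were. Its 6 arrays lay above all vehicle arrays in both comparisons, as did those of 0.0748% of tested probe sets at 3 pM and 0.387% at 10 pM. The change at 1 pM was 0.21 (adjusted p = 0.534), with an interval of the difference that reached below 0. An exact permutation test over the arrays, two-sided, gave p = 0.00216 both at 100 and at 1000 pM, the smallest that the 924 splits of 6 against 6 allow. Without the 4 arrays of high actin difference the changes were 0.65, 1.34, 1.75 and 1.66 from 3 to 1000 pM and all 4 were called. In these bulk samples, more cells with the transcript and more transcript per cell cannot be told apart.

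**Figure D1:**
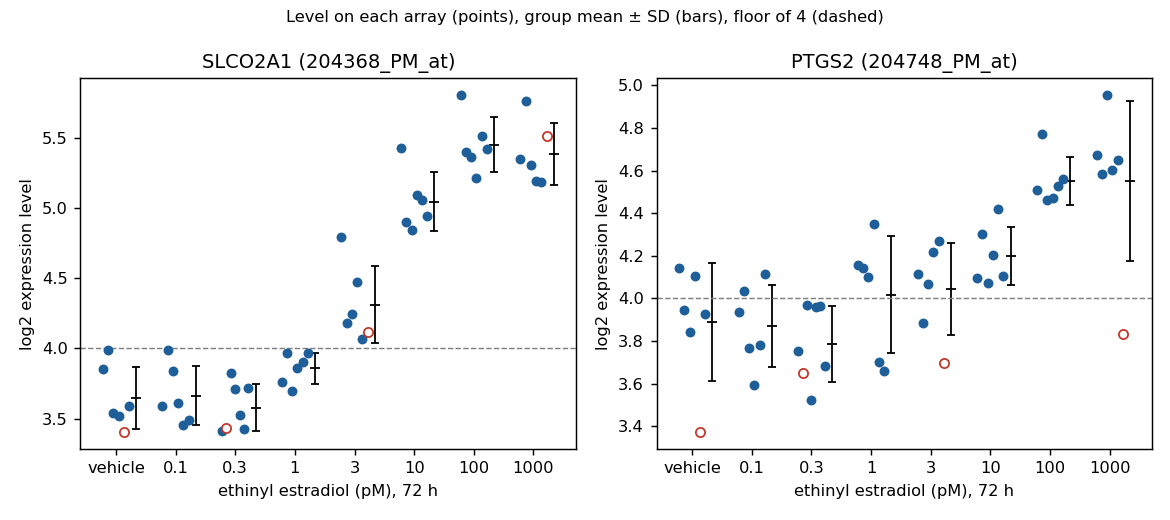
Log2 expression level of SLCO2A1 (left) and PTGS2 (right) on each of the 49 arrays, by group from vehicle to 1000 pM EE; points are arrays, bars are the group mean ± SD, the dashed line is the floor of 4, and open red circles are the 4 arrays with a high actin difference. SLCO2A1 leaves the vehicle range at 3 pM and averages 5.45 at 100 pM, whereas PTGS2 leaves it at 100 pM with a mean of 4.55.

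Between neighbouring concentrations only the step from 3 to 10 pM was called for SLCO2A1. There its log2 level differed by 0.73 (10 pM minus 3 pM; SE 0.12, adjusted p = 7.62e-04) in a comparison that called 0.0572% of probe sets. The step of 3 pM minus 1 pM was 0.45 (adjusted p = 0.844), in a comparison that called 0 probe sets. The arrays of these groups did not overlap, again with no share over all tested probe sets counted. The step of 100 pM minus 10 pM was 0.41 (adjusted p = 0.156), and that of 1000 pM minus 100 pM was −0.07 (95% interval −0.31 to 0.17, adjusted p = 0.994). Above the floor the groups ran, in order of their means, 3 pM, 10 pM, 1000 pM and 100 pM. Arrays of neighbours in that order overlapped from 10 pM to 100 pM. Vehicle and 0.1, 0.3 and 1 pM lay under the floor, where values carry no order, and their arrays overlapped.

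Replicate numbers paired the arrays in the steps of 3 minus 1 pM, 10 minus 3 pM and 100 minus 10 pM. With the replicate number as a block within the 2 groups, the step of 100 pM minus 10 pM was called for SLCO2A1 (0.41, SE 0.08, adjusted p = 0.00346) and for PTGS2 (0.35, SE 0.10, adjusted p = 0.0403), against 0 members without the block. In the blocked fit of these 2 groups alone 4.85% of probe sets were called (1101). The fit of all 8 groups without the block called 0.568% (129, with 0.44% of probe sets higher at 100 pM). These fits differ in their arrays as well as in the block. The blocked step of 10 pM minus 3 pM for SLCO2A1 had an adjusted p of 0.0193.

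A Hill curve of slope 1 fitted to the log2 levels placed the EC50 of SLCO2A1, the concentration at the midpoint of its log2 change, at 4.17 pM (95% interval 3.09 to 5.75 pM, 49 arrays). On the same scale PGR had an EC50 of 7.41 pM (5.89 to 9.33), OLFM1 of 4.37 pM (3.16 to 6.17) and GREB1 of 12.6 pM (10.0 to 16.2). On this scale the interval of SLCO2A1 lay below those of PGR and GREB1 and overlapped that of OLFM1. The part of the SLCO2A1 curve that lies under the floor is compressed, and with the curve fitted on the linear scale the EC50 was 6.46 pM. That value lies inside the log2-scale interval of PGR. No linear-scale curve was fitted for PGR, so the order of these genes is not settled. The called step from 3 to 10 pM was lost when only the 2 groups compared entered the fit (adjusted p = 0.137).

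Over the 8 group means, the tested probe sets most like SLCO2A1 among 145 with a range of at least 1 (log2) were those of TGFA (Pearson r = 0.993), OLFM1 (0.992), THBS1 (0.990), DEPTOR (0.986) and PGR (0.983). These correlations describe 8 points that share arrays and one vehicle group. TGFA, a ligand of the EGF receptor, averaged 10.25 at 1000 pM EE and 9.12 in vehicle.

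ABCC4 (MRP4), an efflux pump that can carry prostaglandins, had 4 probe sets, of which 3 were tested and 0 were called. The probe set 203196_PM_at had lowest, median and highest levels of 8.16, 8.19 and 8.26 at 100 pM EE, of 7.92, 8.12 and 8.30 at 1000 pM, and of 7.26, 8.18 and 8.24 in vehicle. The groups overlapped, and the lowest vehicle array, replicate 5, was one with a high actin difference. Its log2 change was 0.18 at 100 pM (95% interval 0.00 to 0.36, adjusted p = 0.205) and 0.10 at 1000 pM (−0.08 to 0.28, adjusted p = 0.626). Without the 4 arrays these changes were 0.03 and −0.01. A second probe set (1554918_PM_a_at) averaged 5.24 ± 0.14 at 100 pM, 5.07 ± 0.69 at 1000 pM and 4.84 ± 0.81 in vehicle (SD, n = 6 each), with changes of 0.40 (adjusted p = 0.336) and 0.23 (adjusted p = 0.726). Without the 4 arrays, or without vehicle replicate 5 alone, its change at 100 pM was 0.10, with array weights it was 0.03, and at 1000 pM it was 0.21 without the 4 arrays. The third, 1555039_PM_a_at, differed by 0.15 and 0.16, and the fourth, 243928_PM_s_at, was under the floor on all 49 arrays with a highest level of 2.49. The efflux gene was not called where the uptake gene was, and its intervals at 1000 pM ran up to 0.28, 0.78 and 0.50 in the 3 tested probe sets.

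PTGS2 is the inducible cyclooxygenase (COX-2) and PTGS1 the constitutive one (COX-1). PTGS2 is shown with its promoter because PLA2G4A, the cytosolic phospholipase that feeds it with arachidonic acid, also rose and starts 149 kb away on chromosome 1. The sequences below are the 250 bases before the annotated start, from RefSeq on GRCh38.p14, read 5′ to 3′ on the gene's strand. The first is chr1:186680424-186680673 on the minus strand and the second chr1:186828699-186828948 on the plus strand. Capitals mark matches to a short cyclic AMP response motif (CRE; TGACG on either strand, here as CGTCA, beginning 58 bases before the start) and to a TATA box (TATAAA, beginning 32 bases before it).
PTGS2 promoter: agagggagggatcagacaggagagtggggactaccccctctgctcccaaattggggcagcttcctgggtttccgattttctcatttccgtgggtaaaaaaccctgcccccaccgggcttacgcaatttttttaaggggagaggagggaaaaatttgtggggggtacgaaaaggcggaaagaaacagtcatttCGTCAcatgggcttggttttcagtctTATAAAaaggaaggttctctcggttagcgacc
PLA2G4A promoter: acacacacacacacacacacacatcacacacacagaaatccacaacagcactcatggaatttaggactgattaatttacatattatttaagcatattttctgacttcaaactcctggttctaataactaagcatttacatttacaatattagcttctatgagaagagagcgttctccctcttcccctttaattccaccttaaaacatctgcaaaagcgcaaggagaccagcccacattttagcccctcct
In the PLA2G4A window none of the motifs searched was found. TGACG was present in 21.2% and TATAAA in 10.7% of 35114 promoter windows of this length, counting both strands. The full palindromic estrogen response element was in 0.0399% of all windows and in 0 of the 13 windows that RefSeq gave for 9 of the 10 genes, SLCO2A1 being the gene that the table did not list. One arm of it, GGTCA, was in 32.7% and the AP-1 site TGANTCA in 6.57% of all windows, and neither was in that of PTGS2. A match of letters is a description of the window and does not show binding.

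PTGS2 (204748_PM_at) was called at 100 and 1000 pM and lay near the floor in every group. At 0.1 pM its lowest, median and highest levels were 3.60, 3.86 and 4.11, at 0.3 pM 3.53, 3.75 and 3.97, and at 1 pM 3.66, 4.12 and 4.35. They were 3.70, 4.09 and 4.27 at 3 pM, and 4.07, 4.15 and 4.42 at 10 pM. All of these groups overlapped with vehicle, where the levels were 3.37, 3.94 and 4.14 and 2 of 6 arrays were above the floor. At 100 pM they were 4.46, 4.52 and 4.77, above every vehicle array. At 1000 pM they were 3.83, 4.63 and 4.95: 5 arrays lay above all vehicle arrays, and the sixth, replicate 6, lay within the vehicle range and was one with a high actin difference. The lowest vehicle array, replicate 5, was another.

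The log2 change of PTGS2 was 0.66 at 100 pM (SE 0.14, limma adjusted p = 9.08e-04, 6 of 6 arrays above the vehicle mean) and 0.66 at 1000 pM (SE 0.14, adjusted p = 7.62e-04, 5 of 6 arrays). The vehicle mean of 3.89 was itself under the floor, which leaves the fold uncertain. At 10 pM it was 0.31 (adjusted p = 0.426), with all 6 arrays above the vehicle mean. SLCO2A1 and PTGS2 made 2 of 9 tested member probe sets called at 100 pM, where 6.44% of all tested probe sets were called, and 2 of 9 at 1000 pM, where 4.92% were. The members were chosen with earlier results of these data known, and SLCO2A1 passed the filter only through the groups from 3 to 1000 pM. These counts are therefore a description. Higher calls made up 2.78% of tested probe sets at 100 pM and 2.14% at 1000 pM, and lower calls 3.66% and 2.78%, while 0 members were called lower. Arrays that all lay above vehicle were seen in 1.65% of tested probe sets at 100 pM, a set that included both genes, and in 1.21% at 1000 pM, which included SLCO2A1 but not PTGS2. The two-sided exact permutation test gave p = 0.00216 at 100 pM and p = 0.0130 at 1000 pM for PTGS2. Without the 4 arrays of high actin difference its change was 0.56 at 100 pM (adjusted p = 4.49e-04) and 0.70 at 1000 pM (adjusted p = 2.00e-05), and the 2 genes were again the members called. The call at 1000 pM was lost when only the 2 groups compared entered the fit (adjusted p = 0.113).

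A second PTGS2 probe set, 1554997_PM_a_at, stayed under the floor on all 49 arrays and was not tested with the rest. Its lowest, median and highest levels were 2.65, 2.77 and 3.49 at 100 pM EE, 2.27, 3.12 and 3.56 at 1000 pM, and 2.23, 2.53 and 2.70 in vehicle. In a fit with no filter it differed by 0.43 at 100 pM (adjusted p = 0.161) and by 0.57 at 1000 pM (adjusted p = 0.0371). That fit called 1.95% and 1.87% of 54613 probe sets at these concentrations. Both probe sets had higher means at 100 and 1000 pM than in vehicle, the second only under the floor, where values carry no order.

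The EC50 of PTGS2 was 9.33 pM with a wide 95% interval of 3.09 to 30.9 pM, which contained that of SLCO2A1, so that these midpoints were not separated. It was 14.1 pM without the 4 arrays of high actin difference and 13.49 pM on the linear scale. The tested probe sets most like it over the 8 group means, among 146, were those of CAPS (r = 0.990), ANO1 (0.990), PAPSS2 (0.990), POC1B (0.989) and RHOBTB1 (0.987). The 5 nearest of PTGS2 and the 5 nearest of SLCO2A1 had no gene in common. All of their r values lay between 0.983 and 0.993, so these ranks cannot tell the responses of PTGS2 and SLCO2A1 apart.

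**Figure D2:**
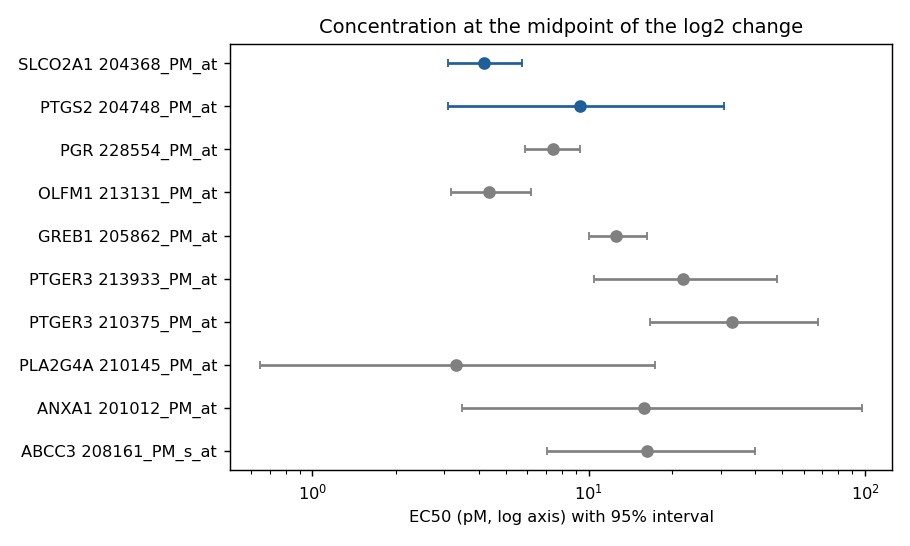
EC50 in pM on a log axis, with 95% intervals, from curves fitted to the log2 levels of 49 arrays; the 2 called members are in blue and other estrogen-responsive or prostanoid genes in grey. SLCO2A1 sits at 4.17 pM with a narrow interval, PTGS2 at 9.33 pM with an interval that spans 3.09 to 30.9 pM, and the PTGER3 probe sets at 21.9 and 33.1 pM.

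PTGS1 had 4 probe sets, of which 205128_PM_x_at was tested. Its lowest, median and highest levels were 3.45, 3.84 and 4.13 at 100 pM EE, 3.35, 3.83 and 4.23 at 1000 pM, and 3.63, 4.17 and 5.44 in vehicle. The groups overlapped around the floor, and the highest vehicle array was replicate 5, one with a high actin difference. The log2 change was −0.48 at 100 pM (95% interval −0.85 to −0.11, adjusted p = 0.0989) and −0.49 at 1000 pM (−0.85 to −0.12, adjusted p = 0.135), so it was not called. The call turned on 1 library: without vehicle replicate 6 the changes were −0.61 (adjusted p = 0.0260) and −0.62 (adjusted p = 0.0297). Without the 4 arrays of high actin difference they were −0.25 (adjusted p = 0.360) and −0.30 (adjusted p = 0.362). The untested probe sets 205127_PM_at, 215813_PM_s_at and 238669_PM_at were above the floor on 0, 1 and 1 of 49 arrays. In the fit with no filter they differed by −0.04, −0.39 and −0.22 at 1000 pM, with adjusted p of 0.961, 0.255 and 0.497.

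No prostaglandin E synthase was called at any concentration. PTGES, the inducible microsomal enzyme, was under the floor on all 49 arrays in both of its probe sets, with highest levels of 3.36 (207388_PM_s_at) and 3.05 (210367_PM_s_at). PTGES2, the second microsomal synthase (218083_PM_at), had lowest, median and highest levels of 5.75, 6.03 and 6.31 at 100 pM EE, 5.99, 6.18 and 6.50 at 1000 pM, and 5.97, 6.12 and 6.86 in vehicle. It overlapped between all 3 groups, with log2 changes of −0.21 at 100 pM (95% interval −0.44 to 0.02, adjusted p = 0.227) and 0.00 at 1000 pM (−0.22 to 0.23, adjusted p = 0.989). The highest vehicle array was replicate 5, one with a high actin difference, and the change at 100 pM was −0.08 without it. With all 4 such arrays left out the changes were −0.08 at 100 pM and 0.08 at 1000 pM.

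PTGES3, also known as p23, is a cytosolic synthase and a co-chaperone of HSP90 with steroid receptors. It was detected on all 49 arrays, with group means from 12.33 to 12.48. Its probe set (200627_PM_at) had levels of 12.36, 12.49 and 12.57 at 100 pM (lowest, median and highest), of 12.21, 12.44 and 12.50 at 1000 pM, and of 11.71, 12.45 and 12.48 in vehicle. The lowest vehicle value was replicate 5, one of the 4 arrays. The change was 0.15 at 100 pM (95% interval 0.00 to 0.30, adjusted p = 0.186) and 0.09 at 1000 pM (−0.06 to 0.23, adjusted p = 0.600), and without the 4 arrays 0.03 and 0.00.

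The 2 receptor genes differed in detection. PTGER2 (EP2; 206631_PM_at) was under the floor on all 49 arrays, with levels from 2.16 to 3.21 over the series. PTGER4 (EP4; 204897_PM_at) was above it on all 49, with group means from 5.72 to 5.92. Its lowest, median and highest levels were 5.76, 5.95 and 6.06 at 100 pM EE, 5.57, 5.78 and 5.92 at 1000 pM, and 5.29, 5.84 and 6.09 in vehicle. The changes were 0.13 at 100 pM (95% interval −0.06 to 0.31, adjusted p = 0.377) and −0.04 at 1000 pM (−0.23 to 0.14, adjusted p = 0.851). The lowest vehicle array was again replicate 5, and without it the change at 100 pM was 0.02. The changes with all 4 such arrays left out were 0.02 at 100 pM and −0.11 at 1000 pM. A second PTGER4 probe set, 204896_PM_s_at, was under the floor on all arrays, with a highest level of 2.92, so the probe sets of this gene disagreed on its detection.

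HPGD, the dehydrogenase that inactivates prostaglandins, had 4 probe sets and none was tested. They were above the floor on 3 (203913_PM_s_at), 1 (203914_PM_x_at), 0 (211548_PM_s_at) and 0 (211549_PM_s_at) of 49 arrays. The brightest, 203913_PM_s_at, had levels of 3.12, 3.82 and 4.39 at 100 pM (lowest, median and highest), of 2.88, 3.58 and 4.12 at 1000 pM, and of 2.88, 3.63 and 3.91 in vehicle, so its groups overlapped. A change in this gene was not measurable at these signals.

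**Figure D3:**
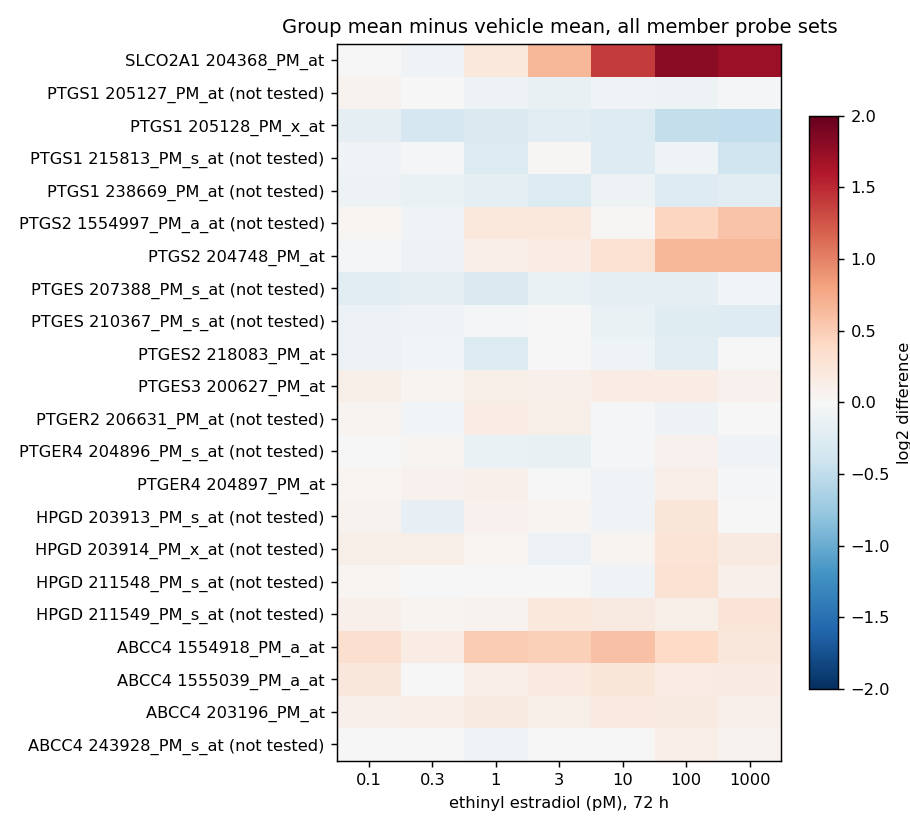
Group mean minus vehicle mean (log2) for all 22 member probe sets, in rows, at the 7 EE concentrations, in columns; rows marked as not tested did not pass the filter on low values. The SLCO2A1 row deepens from 3 pM to a difference of 1.80 at 100 pM, the PTGS2 rows are red at 100 and 1000 pM, and the PTGES, PTGER2 and HPGD rows are all marked not tested.

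Over the 9 tested member probe sets the median log2 change was 0.15 at 100 pM and 0.10 at 1000 pM, against 0.01 and 0.01 over all tested probe sets. These medians use all arrays, and ABCC4 enters them with more than 1 probe set. Without the 4 arrays of high actin difference, the changes at 100 pM of the 7 uncalled probe sets ran from −0.25 (PTGS1) to 0.14 (ABCC4 1555039_PM_a_at). The medians are thus not read as a shift of all members. The F test over the 8 groups called the same 2 members, SLCO2A1 (adjusted p = 1.22e-21) and PTGS2 (adjusted p = 1.31e-05), and 4.96% of all tested probe sets. SLCO2A1 passed the filter only through its higher EE groups, which this test compares with the rest, so its p-value here is also a description. The adjusted p of the other 7 ran from 0.658 (PTGES2) to 0.984 (ABCC4, both 1555039_PM_a_at and 203196_PM_at).

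**Figure D4:**
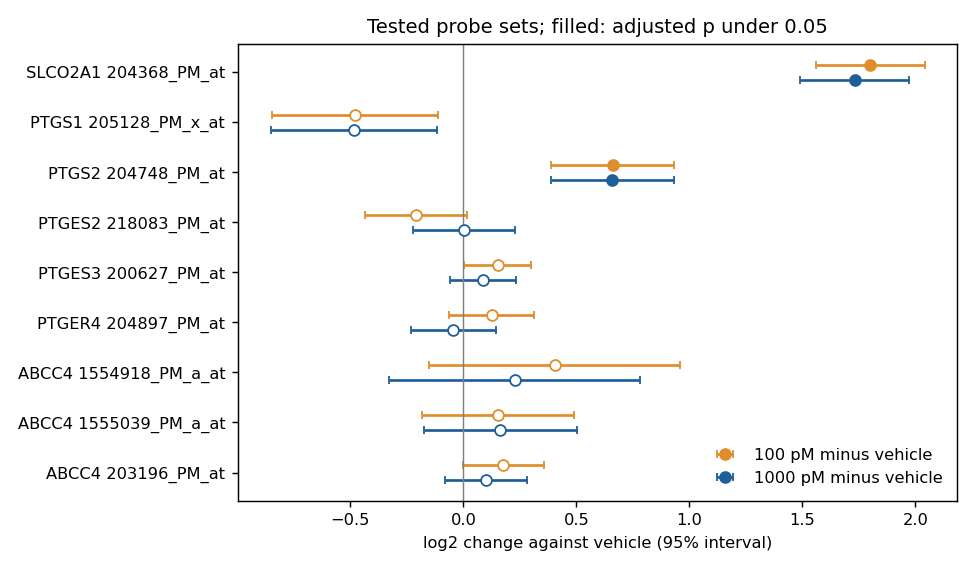
Log2 change against vehicle with 95% intervals for the 9 tested member probe sets at 100 pM (orange) and 1000 pM EE (blue); filled symbols had an adjusted p under 0.05. SLCO2A1 (1.80 and 1.73) and PTGS2 (0.66 at both) are filled, and the intervals of ABCC4, PTGES2 and PTGER4 at 1000 pM include 0.

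Other genes of prostanoid metabolism and transport were read from 7 lists of 82 genes, of which 33 had a tested probe set, taking the tested probe set with the highest mean for each gene. Of the 33, 7 were called at 100 pM (3 higher and 4 lower) and 6 at 1000 pM (3 higher and 3 lower), while 0 were called at 3 or 10 pM. Among all 11075 genes 8.23% were called at 100 pM and 6.36% at 1000 pM. The 3 that rose were PLA2G4A, ANXA1 and PTGER3 at both concentrations. With only the 2 groups compared in the fit, PTGER3 and ABCC3 were the 2 genes called at each concentration. In that fit PLA2G4A (adjusted p = 0.241 at 100 pM and 0.370 at 1000 pM), ANXA1 (0.193 and 0.123), CBR3 (0.199 and 0.347), PTGFRN (0.156 at 100 pM), SLCO4A1 (0.220 at 100 pM) and GSTM2 (0.0858 at 1000 pM) were not called.

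Release of arachidonic acid had 2 genes higher and 0 lower of 13 tested at both 100 and 1000 pM, and a median change of −0.02 against −0.01 over all genes at 1000 pM. PLA2G4A (210145_PM_at) had lowest, median and highest levels of 8.29, 8.36 and 8.47 at 100 pM, of 8.04, 8.41 and 8.57 at 1000 pM, and of 6.94, 8.04 and 8.15 in vehicle. No array at 100 pM overlapped with vehicle, and all arrays at 100 pM lay above vehicle in 1.65% of tested probe sets. The change of PLA2G4A was 0.49 at 100 pM (adjusted p = 0.00759) and 0.49 at 1000 pM (SE 0.12, adjusted p = 0.00731). Without the 4 arrays, which include the lowest vehicle array, it was 0.30 and 0.37 (adjusted p = 2.31e-04 and 1.62e-05).

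ANXA1, annexin A1, is known to inhibit phospholipase A2 and so acts against that release. Its probe set (201012_PM_at) had levels of 10.54, 10.79 and 11.04 at 100 pM, of 10.76, 10.84 and 11.19 at 1000 pM, and of 9.09, 10.35 and 10.57 in vehicle. No array at 1000 pM overlapped with vehicle, and those at 100 pM did. All arrays at 1000 pM lay above vehicle in 1.21% of tested probe sets. The change was 0.64 at 100 pM (SE 0.15, adjusted p = 0.00289) and 0.75 at 1000 pM (adjusted p = 3.58e-04), and 0.43 and 0.56 without the 4 arrays. The list thus held a gene of the release and a gene that opposes it among its called members.

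Of the other prostanoid receptors, 2 of 8 listed were tested. PTGER3 encodes EP3, which lowers cyclic AMP where EP2 and EP4 raise it. Its probe set 213933_PM_at had lowest, median and highest levels of 5.96, 6.42 and 6.56 at 100 pM EE, of 5.99, 6.60 and 6.76 at 1000 pM, and of 4.92, 5.35 and 5.69 in vehicle. Neither EE group overlapped with vehicle. All arrays lay above vehicle in 1.65% of tested probe sets at 100 pM and in 1.21% at 1000 pM. The change was 1.04 at 100 pM (SE 0.15, adjusted p = 1.44e-06) and 1.16 at 1000 pM (adjusted p = 9.25e-08, 2.24-fold). Another 2 probe sets of the gene were under the floor on every vehicle array and passed the filter mainly through the 100 and 1000 pM groups, so their values are a description: at 1000 pM all 6 arrays were above the floor in both, with means of 4.96 (210375_PM_at) and 4.29 (210374_PM_x_at). At 10 pM the mean of 213933_PM_at was 5.61. Its EC50 was 21.9 pM (10.5 to 47.9 pM), an interval that on the log2 scale lay above that of SLCO2A1. The linear-scale EC50 of SLCO2A1, 6.46 pM, also lay below it, but no linear-scale curve was fitted for PTGER3. PTGFRN, a regulator of the prostaglandin F receptor, changed by −0.31 at 100 pM (adjusted p = 0.0171) and by −0.24 at 1000 pM (adjusted p = 0.0795). Its call at 100 pM was lost without vehicle replicate 1 (−0.27, adjusted p = 0.0522), vehicle replicate 5 (−0.25, 0.0817) or 100 pM replicate 5 (−0.27, 0.0524). At 1000 pM it was called without vehicle replicate 4 (−0.28, adjusted p = 0.0489), vehicle replicate 6 (−0.28, 0.0454), 1000 pM replicate 6 (−0.30, 0.0255) or the 4 arrays (−0.24, 0.0153), and with array weights (−0.18, 0.0450). Its second probe set, 224950_PM_at, was called at both concentrations (−0.35 and −0.31).

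Of the other synthases and reductases 7 were tested, with 0 higher and 1 lower at 100 pM, and 0 higher and 2 lower at 1000 pM. CBR3, a carbonyl reductase, fell at 100 pM by 0.34 (adjusted p = 0.0147) and at 1000 pM by 0.32 (adjusted p = 0.0299) on the log2 scale, the second of which was lost without the 4 arrays (−0.23, adjusted p = 0.147), with array weights (−0.22, 0.102) and with no filter (0.0719). Leaving out vehicle replicate 2, 4 or 5 or 1000 pM replicate 4, 5 or 6 also ended the call of CBR3 at 1000 pM (adjusted p of 0.0525 to 0.137), and leaving out vehicle replicate 5 ended that at 100 pM (−0.27, adjusted p = 0.0807). GSTM2, a glutathione transferase with prostaglandin E synthase activity, was called lower at 1000 pM (adjusted p = 0.0114) but not at 100 pM (adjusted p = 0.0873). Its levels lay at the floor, with means of 3.75 at 1000 pM, where 0 of 6 arrays were above it, and of 4.08 in vehicle, so that the difference is only bounded, at least 1.06-fold lower. The 2 probe sets of PTGDS, prostaglandin D2 synthase, had higher means at 1000 pM than in vehicle: 212187_PM_x_at was called (0.57, adjusted p = 0.00557), and the brighter 211748_PM_x_at was not (0.39, adjusted p = 0.0555).

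Among other transporters, 1 of 4 tested ABCC genes was called at both concentrations. ABCC3, an efflux pump of the same family as ABCC4, had levels in 208161_PM_s_at of 5.42, 5.83 and 5.97 at 100 pM (lowest, median and highest), of 5.51, 5.78 and 6.05 at 1000 pM, and of 6.36, 6.53 and 6.70 in vehicle. Every array of these EE groups lay under every vehicle array, for which no share over all tested probe sets was counted. The change was −0.79 at 100 pM (adjusted p = 1.25e-06) and −0.76 at 1000 pM (SE 0.11, adjusted p = 2.70e-06). Of its 3 other tested probe sets, 230682_PM_x_at was called lower at 100 pM (adjusted p = 0.00150), where 0 of 6 arrays were above the floor and it was at least 1.25-fold lower, and none was called at 1000 pM. Of 2 tested SLCO genes, SLCO4A1 was called lower at 100 pM (−0.44, adjusted p = 0.0168; −0.33 and adjusted p = 0.0540 without the 4 arrays; −0.33 and 0.0984 without vehicle replicate 5; −0.40 and 0.0553 without 100 pM replicate 3), and SLCO4C1 had the larger change at 1000 pM (0.51, adjusted p = 0.287).

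In the catabolic list 0 of 3 tested genes were called, and the largest change at 1000 pM was 0.20 in PTGR2, a reductase that acts on 15-keto prostaglandins (adjusted p = 0.602). Of lipoxygenase and leukotriene genes 2 of 13 were tested and 0 called, the larger change at 1000 pM being −0.12 in LTB4R, a leukotriene B4 receptor (adjusted p = 0.668).

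**Figure D5:**
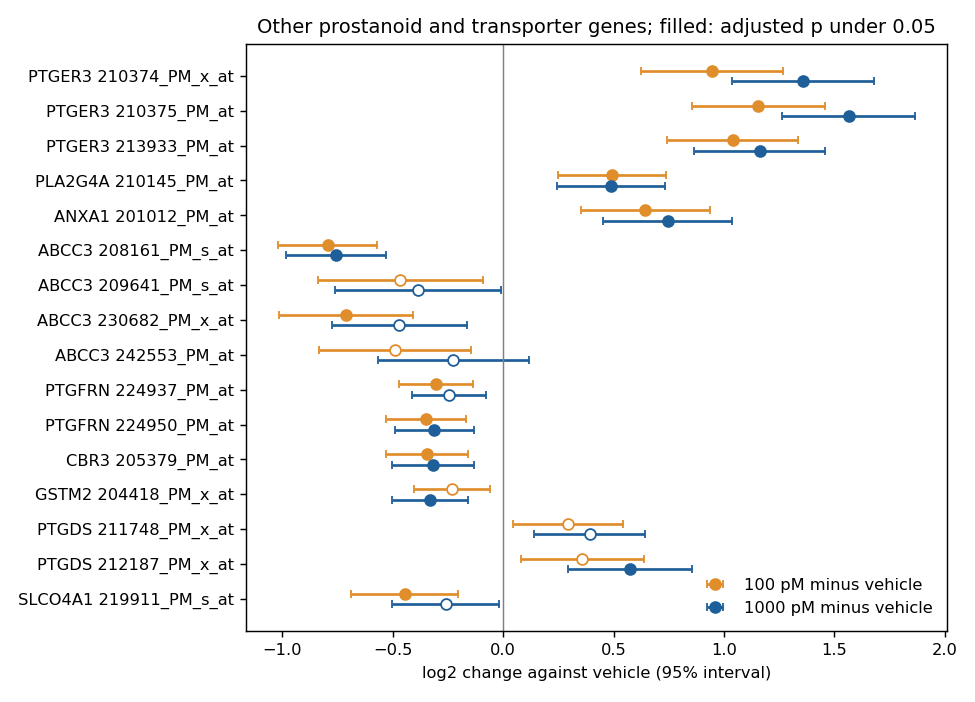
Log2 change against vehicle with 95% intervals at 100 pM (orange) and 1000 pM EE (blue) for each tested probe set of called genes outside the 10 members and for PTGDS; filled symbols had an adjusted p under 0.05. All 3 PTGER3 probe sets lie right of 0 at both concentrations, but 210375_PM_at and 210374_PM_x_at passed the filter mainly through these groups. The ABCC3 probe sets lie left of 0, with 208161_PM_s_at filled at both (−0.79 and −0.76).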

How the data were processed

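Each of 49 RNA samples was run on its own Affymetrix array (HT HG-U133 Plus PM). The authors deposited log2 expression levels, and the submitters' processing notes name GCRMA and Partek without versions. Background correction and summarization were therefore the authors', GCRMA compresses dim signals, and the number of arrays limits the precision. A single gene symbol was annotated for 40920 of 54715 probe sets, several for 864 and none for 12931, and 102 control probe sets were left out. Symbols were checked in RefSeq (40864 found, 0 changed).

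Group means of all 8 groups were fitted to the 22721 probe sets in R 4.3.3 with limma 3.58.1 (and statmod 1.5.0 and the data.table package at 1.17.8), using an intensity trend and Benjamini-Hochberg adjustment in each contrast. Figures used Python 3.11.15, matplotlib 3.10.9 and pandas 2.3.3. A bound replaced the fold where all arrays of a group lay at or under the floor of 4. The scripts were tested on simulated data. No arrays within a group were identical.

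The members and gene lists were chosen with earlier results of these data known. Text names every member probe set, other-list genes called at 100 or 1000 pM, the largest change of a list without calls, and the 5 genes with the highest correlation to each called member. PTGDS was named after its values were seen. Replicate numbers were taken to pair arrays where all 6 pairs of deviations from the group means correlated above 0.1. This held for 3 minus 1 pM (lowest 0.131), 10 minus 3 pM (0.168) and 100 minus 10 pM (0.295), in no comparison with vehicle, and the labels name no batch. Alternatives changed the filter, variance prior, normalization, array weights, arrays in the fit, curve scale and replicate block.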

Additional observations from a re-analysis of the deposited data

Results flagged for a closer look

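In 12 of 72 groups of the tested member probe sets, 1 array stood apart from the rest of its group by Dixon's criterion at 95%, which chance meets in about 1 in 20 groups. In 9 of them the array was one of the 4 whose beta-actin 3′ and 5′ controls differed most: PTGS2 at 3.83 in 1000 pM replicate 6, PTGES2 at 6.86 in vehicle replicate 5, and PTGES3 at 12.23 in 3 pM replicate 6, 12.21 in 1000 pM replicate 6 and 11.71 in vehicle replicate 5. PTGER4 was at 5.38 in 3 pM replicate 6 and at 5.29 in vehicle replicate 5, and ABCC4 was at 3.67 (1554918_PM_a_at) in 1000 pM replicate 6 and at 7.26 (203196_PM_at) in vehicle replicate 5. The remaining arrays that stood apart were PTGS1 at 3.63 in 0.1 pM replicate 5 and 4.48 in 10 pM replicate 2, and PTGS2 at 4.77 in 100 pM replicate 2. No group of SLCO2A1 had such an array.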

How the results depend on the processing

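The rise of SLCO2A1 at 10, 100 and 1000 pM kept its direction and its call under every alternative run, leave-one-out included. Counts of called members or other genes moved by at least 1.5 times under these alternatives. With no filter on low values 3 member probe sets were called at 1000 pM, counting both probe sets of PTGS2. With a filter of log2 above 5, PTGS2 was not tested, which left 1 called member at 100 pM, 1 at 1000 pM and 1 in the F test. With only the 2 groups compared in the fit, called members were 0 at 3 pM, 1 at 1000 pM and 0 for 10 pM minus 3 pM, and called genes of the other lists were 2 at 100 pM and 2 at 1000 pM, with fewer samples to estimate the spread. With the replicate block within the 2 groups, 2 members were called for 100 pM minus 10 pM, and the block changed no other member's call. On the linear scale the EC50 of SLCO2A1 was 6.46 pM. Leaving out 1 array at a time gave 2 to 3 called members at 100 and at 1000 pM, the third being PTGS1, 5 to 8 and 5 to 7 other genes, and EC50s of 3.98 to 4.57 pM (SLCO2A1) and 7.76 to 12.9 pM (PTGS2).

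Changes at 1000 pM that turned sign were all uncalled: PTGES2 with quantile normalization (−0.0026); without the 4 arrays of high actin difference ABCC4 203196_PM_at (−0.011); without the 2 arrays of the largest difference ABCC4 203196_PM_at (−0.051) and 1554918_PM_a_at (−0.073) and PTGES3 (−0.036). Leave-one-out ranges that crossed 0 were −0.051 to 0.14 for ABCC4 203196_PM_at, −0.073 to 0.51 for 1554918_PM_a_at, −0.036 to 0.13 for PTGES3, −0.15 to 0.014 for PTGER4, −0.052 to 0.13 for PTGES2 and −0.14 to 0.0010 for SLCO2A1 at 1000 minus 100 pM. Causes were not tested. Of 1576 values over 63 results, 1510 kept direction and call. Signal limits what can be said of PTGES, PTGER2 and HPGD, which stayed near or under the floor.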
